A study of Mus musculus with 20 samples.

Results

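Free 25-hydroxycholesterol (25HC), an oxidised cholesterol, was set against GW3965, a man-made drug that activates the liver X receptors (LXR), in cultured mouse articular chondrocytes, the cells of joint cartilage. The chondrocytes came from mice aged 6 weeks, and strain, sex and genotype are not given in the labels. The 25HC group held 5 libraries of cells kept for 48 hours in 20 µM 25HC, and the GW3965 group held 5 libraries of cells kept for 48 hours in 2 µM GW3965. These 10 libraries were all those of both treatments, of 20 in the series. The other groups were DMSO (Vehicle) and 20 µM 25HC 3-sulfate, and they are compared with no group here and enter only the fit of all 20 libraries, given as an alternative. The doses differ, so compound and dose cannot be told apart. The labels leave it unstated if replicates were separate animals, cultures or wells, and p-values therefore speak only of library-to-library spread, which may be technical. 

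Sterols and their oxidised forms control genes through separate routes. LXRα and LXRβ, encoded by Nr1h3 and Nr1h2, are nuclear receptors that bind oxysterols and switch on genes for cholesterol export and fatty acid synthesis. SREBP2, encoded by Srebf2, switches on cholesterol synthesis and uptake, and 25HC is known to hold SREBP proteins in the endoplasmic reticulum by binding the INSIG proteins. GW3965 is a non-steroidal LXR ligand, and 25HC is made in cells from cholesterol by the hydroxylase Ch25h.

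Expression was measured by RNA sequencing and given as FPKM, the number of fragments scaled to gene length and to library size. The 25HC libraries held 17625229 to 19348139 fragments in genes and the GW3965 libraries held 16349340 to 18332665. Between 20885 and 21318 genes were detected per library. The labelled cell type was matched by cartilage genes: Col2a1, the main collagen of cartilage, averaged 2303 ± 147 FPKM in 25HC and 2929 ± 296 FPKM in GW3965 (SD, n = 5 each), and the proteoglycan core gene Acan averaged 83.1 ± 2.87 FPKM in 25HC and 65.9 ± 6.72 FPKM in GW3965 (SD, n = 5 each). General macrophage markers were also present: all 16 of 16 were tested, and their summed level was 819 to 1167 FPKM in 25HC and 1034 to 1205 FPKM in GW3965. The haemoglobin genes Hba-a1, Hba-a2 and Hbb-bs were listed at 0 in all 10 libraries, and none of 10 erythroid and neutrophil markers was high enough to test. Vehicle libraries 2, 3 and 4 and 25HC 3-sulfate library 1 stood apart, with 237 to 1171 genes seen as exactly 1 fragment, while the 10 libraries used here had 1808 to 2057 such genes. Those that stood apart enter the fit of all 20 libraries, and the Vehicle ones enter the Vehicle values given as background. In bulk RNA, fewer cells of a type and less RNA per cell cannot be told apart.

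The difference was broad in number and mostly small in size. Of 12134 tested genes, 755 were higher in 25HC than in GW3965 (6.22%) and 683 were lower (5.63%), by limma on log2(FPKM + 1) with a Benjamini-Hochberg adjusted p under 0.05 across all tested genes. The same comparison on the fragment counts recovered from the FPKM values, by limma-voom, gave 1186 higher and 643 lower, so the share of higher calls was 64.8% there and 52.5% in the main test. Differences are given on the log2(FPKM + 1) scale as 25HC minus GW3965, with their standard error, and this scale understates the change of low genes. No called gene was at least 2-fold higher in 25HC on this scale. In plain FPKM some means were, among them those of Cxcl10 (3.59 times), Cxcl5 (2.30 times), Car3 (2.27 times) and Spc24 (2.20 times). On the log2(FPKM + 1) scale 23 called genes were at least 2-fold lower, and 6 of these at least 4-fold. Those 6 were Abca1, Abcg1, Scd1, Srebf1, Scd2 and Fads2. With all 20 libraries in the fit 109 were called higher and 108 lower. At 1.5-fold, in the fit of 10 libraries, the counts were 50 higher and 75 lower. The median difference was 0.27 among genes called higher and -0.23 among genes called lower, against -0.0062 over all tested genes. For 91.9% of tested genes the 95% interval of the difference lay within 0.5 of 0.

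**Figure D1:**
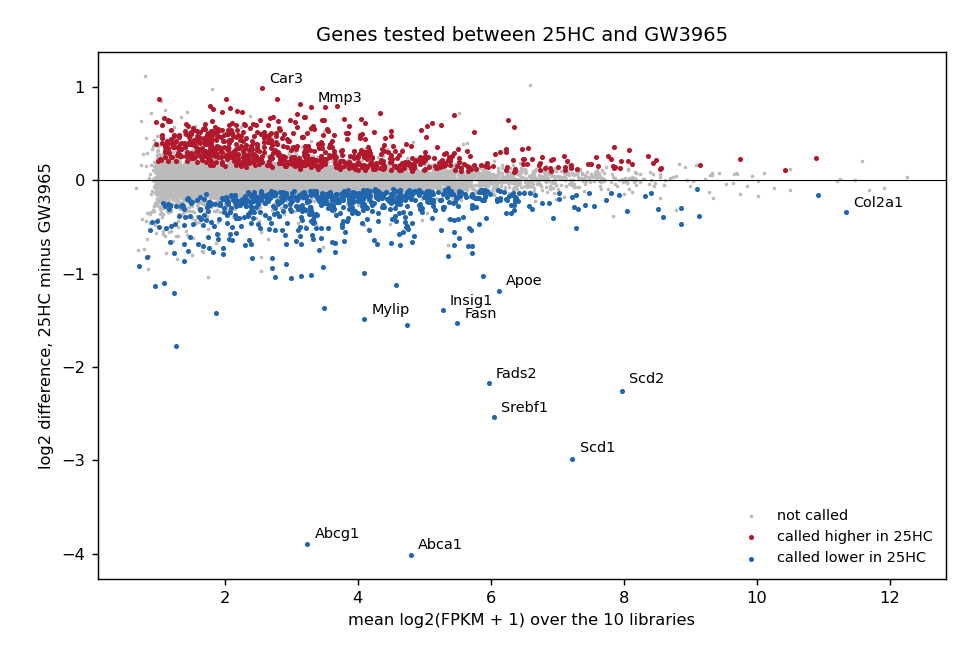
Difference between 25HC and GW3965 (y axis, log2, 25HC minus GW3965) against the mean level (x axis, log2(FPKM + 1) over the 10 libraries), with 1 point for each of 12134 tested genes; red points were called higher in 25HC and blue points lower. The lower arm reaches -4.01 at Abca1 and holds lipid genes, while the highest called gene is Car3 at 0.98.

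The libraries separated by treatment. On the first principal component of all tested genes, which held 30% of the variance, the 25HC libraries lay between 8.51 and 10.9 and the GW3965 libraries between -10.58 and -8.58. In 705 genes every 25HC library lay above every GW3965 library (5.81% of those tested), and in 681 every 25HC library lay below (5.61%). Of the called genes, 615 of those higher and 566 of those lower separated in this way.

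The genes with the largest differences are known LXR targets, and for some of them the receptor's binding element lies close to the start site. Their promoters are shown for 3 genes because they hold the LXR element known from Abca1 and Srebf1 (GGTTACT, any 2 bases, then CGGTCA). Capitals mark the element, which here lies on the strand opposite to the gene. Bases are 5′ to 3′ on the gene's strand, from RefSeq on GRCm38.p6. 
Abca1: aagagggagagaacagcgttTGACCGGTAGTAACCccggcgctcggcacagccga
Srebf1: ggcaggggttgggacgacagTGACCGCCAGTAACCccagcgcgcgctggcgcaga
Fasn: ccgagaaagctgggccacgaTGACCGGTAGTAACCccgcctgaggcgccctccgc
The Abca1 stretch lies at chr4:53159928-53159982 on the minus strand, where the element starts 67 bases before the start site. Those of Srebf1 (chr11:60210619-60210673, minus strand, before an inner start site of the gene) and Fasn (chr11:120824738-120824792, minus strand) lie with the element 182 and 225 bases before their start sites. The letters were searched on both strands from 250 bases before to 50 after each RefSeq start, and Abca1, Srebf1 and Fasn were the only 3 of 27025 genes with a promoter to hold them (0.0111%). Since the letters were taken from the elements of Abca1 and Srebf1, their matches there were given. A match describes the letters and is not a measured binding site.

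The export genes Abca1 and Abcg1 had the largest differences of all tested genes. Abca1 (chr4:53030787-53159895, minus strand), which moves cholesterol and phospholipid out of cells onto apolipoprotein A-I, had 5.50, 5.70, 5.89, 6.76 and 5.97 FPKM in the 25HC libraries, against 108, 113, 110.4, 113 and 109.8 FPKM in the GW3965 libraries. Every 25HC library was far below every GW3965 library. The mean was 18.6 times lower in 25HC, a difference of -4.01 ± 0.04 (adjusted p = 9.75e-14). Vehicle libraries 1 to 5, given as background with no comparison, had 8.53, 11.3, 13.8, 14.0 and 8.60 FPKM of Abca1.

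Abcg1 (chr17:31057698-31115777, plus strand), which passes cholesterol to high-density lipoprotein, had 1.39, 1.28, 1.56, 1.59 and 1.47 FPKM in 25HC, against 34.7, 36.6, 37.3, 33.2 and 35.3 FPKM in GW3965. The highest 25HC library was far below the lowest GW3965 library. The mean was 24.3 times lower in 25HC, and the difference was -3.89 ± 0.05 (adjusted p = 1.02e-13). Vehicle libraries had 1.83, 1.36, 1.94, 2.48 and 1.79 FPKM of Abcg1.

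Apoe, the lipid-carrying apolipoprotein E, had 44.8, 40.2, 46.0, 48.7 and 46.1 FPKM in 25HC, against 104, 111, 110.5, 99.5 and 94.5 FPKM in GW3965. The groups were well apart, with a difference of -1.18 ± 0.06 (adjusted p = 1.17e-07). Lpl, the lipase that frees fatty acids from lipoproteins, averaged 39.3 ± 4.78 FPKM in 25HC and 67.8 ± 5.73 FPKM in GW3965 (SD, n = 5 each), and it was lower in 25HC, at -0.78 ± 0.08. Arl4c, a small GTPase, and Pltp, the phospholipid transfer protein, were lower, at -0.75 ± 0.03 and -0.29 ± 0.06. Of 8 tested genes of LXR-driven export and lipoprotein handling, 6 were lower in 25HC, 0 were higher and 2 (Ttc39b and Lcat) were not called. The list's median was -0.76, beside -0.0062 for all tested genes and 5.63% of tested genes called lower. Abcg5, Abcg8 and Apoc1 were too low to test.

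The other LXR targets split by size. Srebf1 (chr11:60199089-60222581, minus strand), which encodes SREBP1, the driver of fatty acid synthesis, had 27.7, 25.9, 27.1, 26.2 and 25.6 FPKM in 25HC, against 169, 166, 159, 157 and 143 FPKM in GW3965. The lowest GW3965 library was above 5 times the highest 25HC library, and the difference was -2.54 ± 0.04 (adjusted p = 4.45e-12). Mylip, a ubiquitin ligase of lipoprotein uptake, averaged 9.21 ± 0.356 FPKM in 25HC and 27.6 ± 0.605 FPKM in GW3965 (SD, n = 5 each) and differed by -1.49 ± 0.03. Lpcat3, which puts polyunsaturated chains into phospholipids, averaged 14.6 ± 1.15 FPKM in 25HC and 44.7 ± 1.10 FPKM in GW3965 (SD, n = 5 each) and differed by -1.55 ± 0.05. Rnf145, a ubiquitin ligase of the endoplasmic reticulum, differed by -0.67 ± 0.04. Mertk, a receptor for the uptake of dead cells, differed by -0.26 ± 0.05. 

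Of the receptor genes, Nr1h3 alone was called. Nr1h2 averaged 19.9 ± 0.519 FPKM in 25HC and 19.2 ± 1.27 FPKM in GW3965 (SD, n = 5 each), with a difference of 0.05 ± 0.04 that did not pass the test (95% interval -0.04 to 0.15). Nr1h3 averaged 3.09 ± 0.203 FPKM in 25HC and 3.65 ± 0.269 FPKM in GW3965 (SD, n = 5 each) and was called lower in 25HC, at -0.18 ± 0.05 (adjusted p = 0.0409). That call was lost when any 1 of 8 libraries was left out, and the groups overlapped. Of 9 tested genes on the list of other LXR targets, 6 were lower, 0 were higher and 3 were not called, with a median of -0.26.

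Fatty acid genes followed with large differences. Scd1 (chr19:44394451-44407709, minus strand), the stearoyl-CoA desaturase, had 49.6, 51.3, 59.0, 49.4 and 52.4 FPKM in 25HC, against 412, 423, 429, 426 and 417 FPKM in GW3965. No library of one group came near the other group, and the mean was 8.05 times lower in 25HC (difference -2.99 ± 0.04, adjusted p = 1.07e-12). Its neighbour and paralogue Scd2 had 107, 112, 122, 120.0 and 111 FPKM in 25HC, against 527, 539, 565, 555 and 554 FPKM in GW3965. Again the groups were wide apart, with a difference of -2.25 ± 0.04. Where genes overlap, as Acsl3 with Utp14b, Srebf1 with Rai1 and Cyp51 with Akap9, the counting rule and its use of strand are unknown, so the share of each gene is uncertain. Fragments shared between near-identical stretches of these paralogues could have been split between them in counting.

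Fads2, which starts the making of long polyunsaturated fatty acids, had 25.8, 24.4, 33.7, 28.1 and 31.4 FPKM in 25HC, against 138, 128, 139.9, 123 and 132 FPKM in GW3965. The groups did not overlap and differed by -2.17 ± 0.08 (adjusted p = 7.75e-09). Fads1, the desaturase that acts after it, averaged 40.4 ± 1.25 FPKM in 25HC and 83.2 ± 2.20 FPKM in GW3965 (SD, n = 5 each) and differed by -1.03 ± 0.03. Fads3, a further member of the family, differed by -0.16 ± 0.04. Among the acyl-CoA synthetases, which activate fatty acids, Acsl3 differed by -1.37 ± 0.04 and Acsl4 by -0.77 ± 0.04, while Acsl1 (0.05 ± 0.05) and Acsl5 (-0.02 ± 0.04) were not called. The elongase Elovl5 differed by -0.70 ± 0.04. Of 12 tested desaturase, elongase and acyl-CoA synthetase genes, 8 were lower in 25HC and 4 were not called, with a median of -0.73.

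In the synthesis of fatty acids from acetyl-CoA, Fasn, the synthase, had 24.6, 24.2, 26.5, 26.6 and 25.8 FPKM in 25HC, against 75.2, 78.6, 78.3, 76.6 and 70.1 FPKM in GW3965. All 25HC libraries lay below all GW3965 libraries, and the difference was -1.53 ± 0.04 (adjusted p = 2.3e-10). Acaca, the carboxylase that makes malonyl-CoA, differed by -0.93 ± 0.04, and Mid1ip1, which activates that carboxylase, by -1.12 ± 0.06. Acly, which supplies acetyl-CoA from citrate, differed by -0.62 ± 0.04, and Acss2, which makes it from acetate, by -0.78 ± 0.06. Acss2 was under 1 FPKM in every 25HC library and passed the filter only through GW3965, so it had to differ. Me1, a source of NADPH, differed by -0.42 ± 0.04. Of 13 tested genes of fatty acid and triglyceride synthesis, 10 were lower in 25HC, Acss2 included, and 0 were higher, with a median of -0.54. The 3 that were not called, Agpat2, Dgat1 and Dgat2, act in triglyceride assembly, and their differences ran from -0.05 to 0.12.

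**Figure D2:**
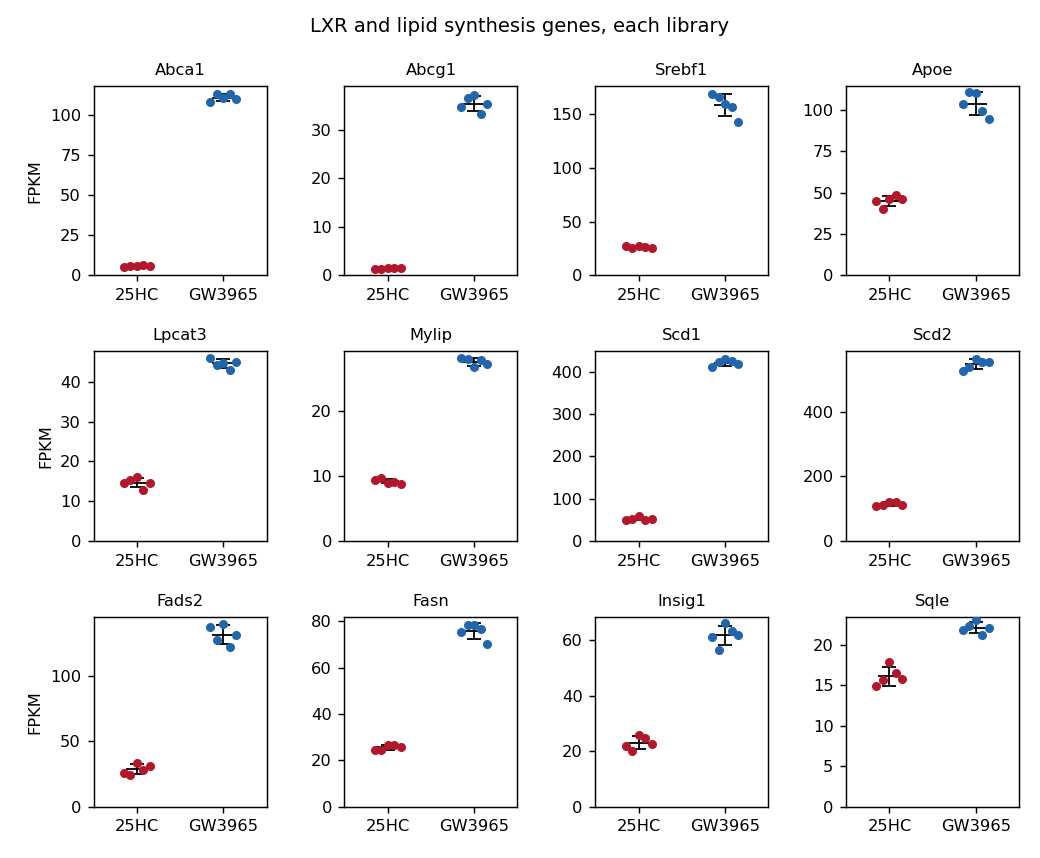
FPKM (y axis, linear from 0) of 12 LXR and lipid synthesis genes in each library, 25HC left and GW3965 right; points are single libraries, and the bar and whiskers are the mean and SD of 5 libraries. No gene shown has overlapping groups, and the gap runs from Abca1 (5.96 and 111 FPKM on average in 25HC and GW3965) to Sqle (16.1 and 22.1 FPKM).

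Of 20 tested cholesterol synthesis genes 19 were lower in 25HC, with a median of -0.56. A pair of promoters is shown because 15 of the 16 sterol synthesis genes with a RefSeq promoter hold a CCAAT box (93.8%), the site of the factor NF-Y that acts beside SREBPs, against 41.1% of all 27025 genes. Both strands were searched, so CCAAT appears as ATTGG on the other strand. 
Nsdhl: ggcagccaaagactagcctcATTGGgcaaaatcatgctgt
Cyp51: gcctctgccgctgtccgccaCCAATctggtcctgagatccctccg
Capitals mark the box. The stretches are chrX:72918481-72918520 on the plus strand and chr5:4104702-4104746 on the minus strand, from RefSeq on GRCm38.p6, and Nsdhl holds 4 such boxes in its window. The letters TCAC, any base, then CCAC, the core of the sterol regulatory element, were found in 1 of the 16 (Hmgcs1, 6.25%) and in 1.44% of all genes.

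In the mevalonate arm, which builds isoprene units, Pmvk, a kinase of the pathway, had 4.46, 5.08, 4.42, 5.69 and 5.16 FPKM in 25HC, against 9.86, 9.69, 7.60, 8.85 and 7.15 FPKM in GW3965. The difference was -0.69 ± 0.09 (adjusted p = 0.000373), and the groups did not overlap. Mvd, which makes the isoprene unit itself, had 8.82, 7.27, 8.66, 9.32 and 9.67 FPKM in 25HC, against 13.7, 12.8, 15.1, 16.0 and 14.7 FPKM in GW3965. These groups were apart too, with a difference of -0.67 ± 0.07. The synthase Hmgcs1, an early step, differed by -0.30 ± 0.06. Acat2, Mvk and Idi1 were lower, at -0.65 ± 0.06, -0.37 ± 0.05 and -0.46 ± 0.10. Of 8 tested genes of this arm, 7 were lower in 25HC. The exception, Ggps1, makes the precursor for protein prenylation rather than sterol, and its difference was 0.06 ± 0.07 (95% interval -0.10 to 0.21). Fdps was under the limit for testing, and with near-identical copies in the genome its value is uncertain.

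From the making of squalene to cholesterol, all 12 genes were tested and all 12 were lower in 25HC, with no overlap between groups in any. Nsdhl, which removes a methyl group from the sterol ring with its partner enzymes, had 5.52, 5.87, 6.38, 6.07 and 5.69 FPKM in 25HC, against 12.8, 12.8, 12.6, 13.1 and 13.3 FPKM in GW3965. It had the largest difference of the arm, -1.01 ± 0.04 (adjusted p = 1.15e-08). Lss, which closes the ring, differed by -0.84 ± 0.05, Tm7sf2 by -0.87 ± 0.08 and Cyp51 by -0.66 ± 0.05. Sqle, which oxidises squalene, had 14.9, 15.6, 17.9, 16.4 and 15.7 FPKM in 25HC, against 21.8, 22.3, 23.0, 21.2 and 22.0 FPKM in GW3965. These libraries also did not overlap, and the difference was -0.43 ± 0.05. Ebp had the smallest, -0.31 ± 0.05. The median of the arm was -0.59, and that of the mevalonate arm was -0.48.

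Among the genes that control SREBPs, Insig1, which holds SREBPs in the endoplasmic reticulum and is itself an SREBP target, had 21.9, 20.0, 25.9, 24.8 and 22.4 FPKM in 25HC, against 61.2, 56.4, 66.1, 63.2 and 61.8 FPKM in GW3965. The groups were apart, with a difference of -1.39 ± 0.06 (adjusted p = 9.82e-08). Vehicle libraries had 14.3, 15.1, 20.5, 15.6 and 14.9 FPKM of Insig1. Insig2 differed by -0.23 ± 0.03. Srebf2 averaged 26.8 ± 1.18 FPKM in 25HC and 34.2 ± 0.770 FPKM in GW3965 (SD, n = 5 each) and differed by -0.34 ± 0.03. Scap (-0.02 ± 0.05) and Mbtps1 (0.07 ± 0.03), the escort and the first protease of SREBPs, were not called.

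Of the uptake genes, Scarb1, the HDL receptor, differed by -0.37 ± 0.04, and Npc1, which carries cholesterol out of lysosomes, did not pass the test (-5.1e-05 ± 0.03, 95% interval -0.07 to 0.07). Of 13 tested genes of SREBP control and uptake, 8 were lower, 0 were higher and 5 were not called, with a median of -0.21. Of the 8, 1 passed the filter only through GW3965 and had to differ.

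**Figure D3:**
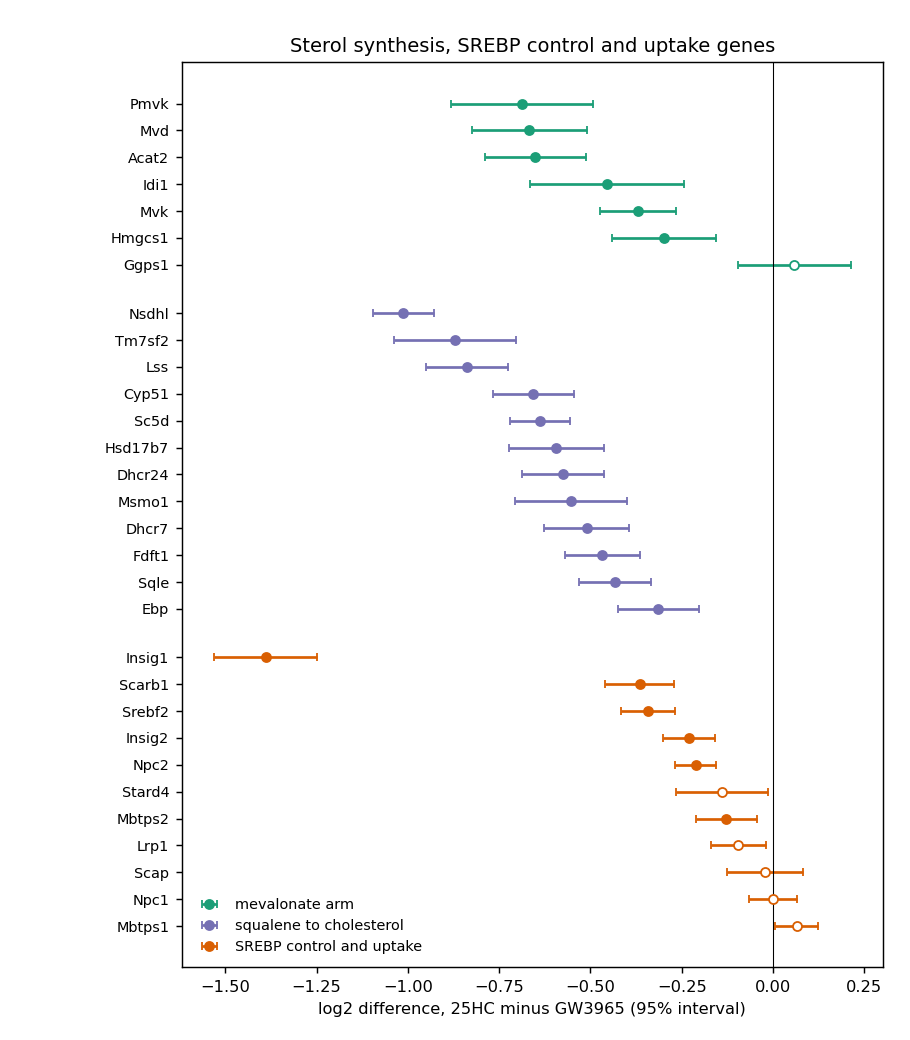
Difference between 25HC and GW3965 (x axis, log2, 25HC minus GW3965) for tested genes of the mevalonate arm, the squalene to cholesterol steps, and SREBP control and uptake; bars are 95% intervals, filled points passed the test and open points did not. All 12 genes from squalene to cholesterol lie left of 0, while Ggps1, Scap, Npc1 and Mbtps1 lie near it.

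These lipid counts rest on the spread within the 10 libraries. With all 20 libraries in the fit, 3 of 6 export genes, 4 of 6 other LXR targets, 2 of 7 mevalonate genes, 11 of 12 genes from squalene on, 4 of 8 control and uptake genes, 9 of 10 synthesis genes and 7 of 8 desaturation genes were still called lower. Apoe was among those lost (adjusted p = 0.734 there), while Abca1, Abcg1, Srebf1, Scd1, Scd2, Fads2 and Fasn were kept. It was at 2.94 and 3.61 FPKM in Vehicle libraries 3 and 4 and at 10.1 FPKM in 25HC 3-sulfate library 1. The other libraries of those groups had 35.9 to 48.3 FPKM of Apoe. The part of the libraries that stood apart in the lost calls was not tested.

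Some lipid droplet and PPAR target genes were lower as well. Angptl4, an inhibitor of lipoprotein lipase, averaged 6.00 ± 0.334 FPKM in 25HC and 10.2 ± 0.450 FPKM in GW3965 (SD, n = 5 each) and differed by -0.68 ± 0.04. Cd36, a fatty acid transporter, averaged 7.69 ± 1.02 FPKM in 25HC and 11.4 ± 1.11 FPKM in GW3965 (SD, n = 5 each), and Plin2, the coat protein of lipid droplets, averaged 21.2 ± 0.989 FPKM in 25HC and 30.3 ± 1.18 FPKM in GW3965 (SD, n = 5 each). Their differences were -0.52 ± 0.08 and -0.50 ± 0.04. Cpt1a, the gate of mitochondrial fatty acid oxidation, differed by -0.32 ± 0.04. Ucp2, a mitochondrial carrier, differed by -0.38 ± 0.07. Over all tested genes 5.63% were called lower. Of 14 tested members here 6 were lower, 0 were higher and 8 were not called, with a median of -0.14. Of the 6, 1 was called with all 20 libraries in the fit.

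Among genes that make, sense and remove oxysterols, a single one was called by limma on the 10 libraries. Ch25h, which makes 25HC itself, had 7.28, 6.53, 7.31, 7.51 and 8.93 FPKM in 25HC, against 4.79, 5.68, 4.35, 5.59 and 5.64 FPKM in GW3965. Every 25HC library was above every GW3965 library, and the gene was higher by 0.45 ± 0.08 (adjusted p = 0.00345). Vehicle libraries 1 to 5 had 11.4, 4.68, 4.36, 3.12 and 9.23 FPKM of Ch25h. The low values are those of libraries 2, 3 and 4, which stood apart in the number of genes seen as 1 fragment. The call was lost with all 20 libraries in the fit (adjusted p = 0.774). Cyp7b1, which breaks 25HC down, differed by 0.25 ± 0.11 and was not called (95% interval 0.01 to 0.48). Sult2b1, a sterol sulfotransferase, was too low to test, at a mean of 0.0784 FPKM in 25HC and 0.0678 FPKM in GW3965. Soat1, which stores cholesterol as esters, differed by -0.04 ± 0.04 (95% interval -0.12 to 0.04). Of 11 tested genes of this list, Ch25h alone was called, near the 6.22% of all tested genes called higher. By limma-voom, and without 25HC library 2, 1 gene was called lower as well.

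Cell division genes were higher in 25HC without exception among those tested. The promoters of Top2a and Mki67 are shown because 14 of the 19 tested mitosis genes with a RefSeq promoter hold TTTGAA on one of the strands (73.7%), the cell cycle homology region bound by the DREAM complex, against 20.2% of all 27025 genes. 
Top2a: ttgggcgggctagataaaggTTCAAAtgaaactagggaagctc
Mki67: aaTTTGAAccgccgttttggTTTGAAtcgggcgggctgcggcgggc
Capitals mark TTTGAA or its reverse complement, TTCAAA. The stretches are chr11:99024190-99024232 and chr7:135716452-135716497, both on the minus strand, from RefSeq on GRCm38.p6. A CCAAT box was found in 16 of the 19 (84.2%). Among replication genes 2 of 18 hold TTTGAA (11.1%).

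Of the replication genes, Rrm2, which makes deoxynucleotides, had 45.8, 45.9, 44.1, 49.4 and 45.3 FPKM in 25HC, against 29.96, 29.6, 30.00, 31.9 and 29.4 FPKM in GW3965. The groups were apart, and the difference was 0.60 ± 0.03 (adjusted p = 7.46e-07). Mcm5, part of the replicative helicase, averaged 19.8 ± 1.41 FPKM in 25HC and 12.2 ± 1.31 FPKM in GW3965 (SD, n = 5 each) and differed by 0.66 ± 0.07. Gins1, a partner of the helicase, differed by 0.54 ± 0.13. All 6 tested helicase genes of the MCM family were higher, by 0.47 to 0.66. Lig1, which joins DNA strands, differed by 0.53 ± 0.06, and Pcna, the sliding clamp, by 0.32 ± 0.05. Of 24 replication genes 23 were tested and 23 were higher in 25HC, beside 6.22% of all tested genes. Their median was 0.44, and the groups overlapped in Rfc3 and Rfc4.

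For mitosis, Top2a, which untangles chromosomes, had 15.1, 14.3, 16.9, 18.1 and 17.9 FPKM in 25HC, against 8.77, 9.28, 10.4, 10.5 and 11.3 FPKM in GW3965. No libraries overlapped, and the difference was 0.66 ± 0.08 (adjusted p = 0.000179). Mki67, the common marker of cycling cells, had 14.8, 13.9, 17.7, 16.7 and 17.9 FPKM in 25HC, against 10.0, 10.8, 11.3, 11.1 and 12.2 FPKM in GW3965. The groups again did not overlap, with a difference of 0.50 ± 0.07. Birc5 (survivin), Aurkb and Ccna2 differed by 0.75 ± 0.11, 0.68 ± 0.06 and 0.67 ± 0.11. All 24 mitosis genes were tested and all 24 were higher, with a median of 0.50 and overlap in Ccnb2, Cenpe and Kif23. Vehicle libraries 1 to 5 had 16.1, 19.8, 28.5, 32.1 and 17.1 FPKM of Top2a.

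Library by library, the median of the mitosis genes relative to their mean over the 10 libraries was 0.16 and 0.09 in 25HC libraries 1 and 2 and 0.33 to 0.34 in 25HC libraries 3 to 5. In GW3965 it was -0.325 and -0.323 in libraries 1 and 2 and -0.228 to -0.187 in libraries 3 to 5, so libraries 1 and 2 were the lowest in both groups. The groups were apart. Leaving out any single library kept 21 to 23 replication and 23 or 24 mitosis genes. With all 20 libraries in the fit 12 and 8 were called, Top2a among them, and Mki67 was not (adjusted p = 0.787).

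**Figure D4:**
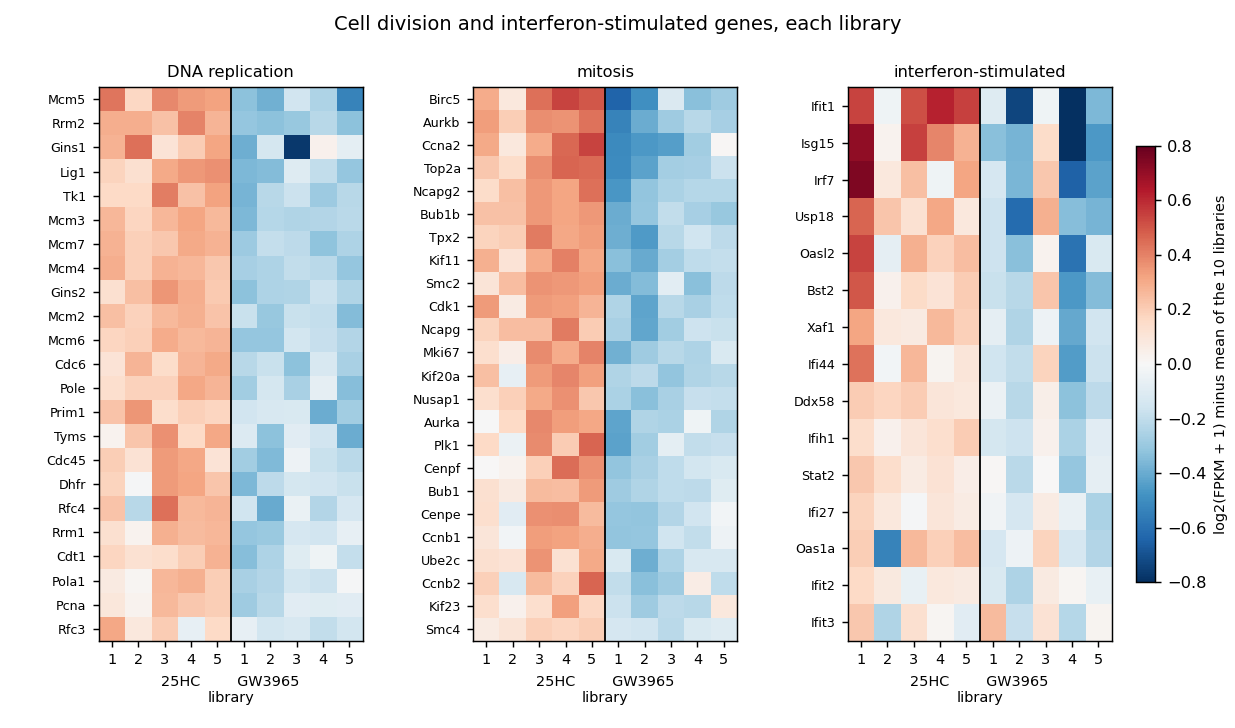
log2(FPKM + 1) of tested genes minus their mean over the 10 libraries (colour, saturating at the ends of the scale) for DNA replication, mitosis and interferon-stimulated genes; rows are genes and columns are libraries, 25HC 1 to 5 left of the line and GW3965 1 to 5 right of it. Division genes are red in 25HC nearly throughout, while the interferon panel is paler in 25HC 2 and deepest blue in GW3965 4.

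Of 16 tested interferon-stimulated genes 9 were higher in 25HC, with more scatter between libraries. The promoters of Ifit1 and Isg15 are shown because 8 of the 13 tested interferon genes with a RefSeq promoter hold GAAA, any 2 bases, then GAAA on one of the strands (61.5%), the core of the interferon-stimulated response element, against 3.99% of all 27025 genes. 
Ifit1: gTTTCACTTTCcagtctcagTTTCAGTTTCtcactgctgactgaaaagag
Isg15: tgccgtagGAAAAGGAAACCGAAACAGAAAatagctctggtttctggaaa
Capitals mark the core or its reverse complement, and in Isg15 overlapping matches run together. The stretches are chr19:34640784-34640833 on the plus strand and chr4:156200855-156200904 on the minus strand, from RefSeq on GRCm38.p6.

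Ifit1, which binds foreign RNA, had 8.97, 5.69, 8.78, 9.52 and 9.02 FPKM in 25HC, against 5.37, 3.12, 5.68, 2.54 and 4.35 FPKM in GW3965. The highest GW3965 library and the lowest 25HC library, number 2, nearly met. The difference was 0.87 ± 0.18 (adjusted p = 0.00814). Isg15, a ubiquitin-like protein, had 17.7, 10.6, 15.7, 13.9 and 12.8 FPKM in 25HC, against 8.05, 7.82, 11.6, 4.92 and 7.29 FPKM in GW3965. Here 25HC library 2 lay below GW3965 library 3, so the groups overlapped, and the difference was 0.78 ± 0.18 (adjusted p = 0.0133). Usp18, which removes Isg15 from proteins, and Oasl2 differed by 0.48 ± 0.14 and 0.47 ± 0.13, both with overlap, calls lost when any 1 of 9 and any 1 of 7 libraries was left out. The transducer Stat2 differed by 0.24 ± 0.06, and the RNA sensors Ddx58 and Ifih1 by 0.31 ± 0.07 and 0.24 ± 0.06. Of the list 0 were lower and 7 were not called, with a median of 0.33, beside 6.22% of all tested genes called higher. Ifit2 (0.13 ± 0.06) and Ifit3 (0.01 ± 0.10), from the same cluster as Ifit1, were among the 7. Without 25HC library 1, GW3965 library 2 or GW3965 library 4, 5 genes were called, and with all 20 libraries in the fit 1 was.

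A few inflammatory genes were higher in 25HC. Cxcl5, a neutrophil chemokine, had 4.47, 6.20, 3.46, 2.78 and 6.39 FPKM in 25HC, against 1.97, 2.47, 1.71, 1.36 and 2.61 FPKM in GW3965. The groups were just apart, with a difference of 0.87 ± 0.19 (adjusted p = 0.01). Cxcl10, an interferon-induced chemokine, had 1.19, 1.36, 1.34, 2.40 and 2.70 FPKM in 25HC and 0.560, 0.429, 0.407, 0.350 and 0.755 FPKM in GW3965. It is not on the inflammatory list, and it passed the filter only through 25HC, since all GW3965 libraries were under 1 FPKM. The groups thus had to differ, and its difference of 0.87 ± 0.15 is given as a description. On the list, Saa3, an acute-phase protein, Nfkbia, an inhibitor of NF-κB, and Vcam1, an adhesion molecule, were called higher, by 0.64 ± 0.15, 0.32 ± 0.09 and 0.26 ± 0.07. With no filter on low values Saa3, Nfkbia and Vcam1 were not called. The call of Nfkbia was also lost without 25HC library 2 or GW3965 library 1, 2 or 4. That of Vcam1 was lost without 25HC library 3 or GW3965 library 1 or 2. Of 14 tested inflammatory genes 4 were higher and 10 were not called, Ccl2 (0.13 ± 0.11) and Ptgs2 (0.08 ± 0.07) among them, and all 14 differences were above 0 (median 0.24). Over all tested genes 6.22% were called higher. Without GW3965 library 2 the list's count was 2, with no filter on low values it was 1, and with all 20 libraries it was 0. Il1b and Il6 were too low to test.

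Macrophage markers moved unevenly beside these genes. Of 16 general markers 15 were not called, Cd68 (71.5 ± 8.65 FPKM in 25HC and 72.6 ± 8.56 FPKM in GW3965, SD, n = 5 each) and Csf1r (59.0 ± 7.32 FPKM in 25HC and 57.2 ± 3.32 FPKM in GW3965, SD, n = 5 each) among them, with a median of -0.05. Lyz2, lysozyme, was lower, at -0.30 ± 0.08, a call lost when any 1 of 4 libraries was left out. A count of 1 in 16 is near the 5.63% of all tested genes called lower. The list's median in 25HC library 2 was -0.31 relative to the mean of the 10 libraries, the lowest of all, and that library was also the lowest 25HC library in Ifit1 and Isg15. Among scavenger receptors, Mrc1, the mannose receptor, had 20.1, 15.2, 21.9, 20.1 and 25.1 FPKM in 25HC, against 11.3, 12.6, 14.2, 12.8 and 13.8 FPKM in GW3965. The groups did not overlap, and it was higher by 0.61 ± 0.11 (adjusted p = 0.00294). Fcrls was higher by 0.58 ± 0.10, Stab1 by 0.30 ± 0.07 and Siglec1 by 0.40 ± 0.11, a call lost when any 1 of 7 libraries was left out, while Msr1, the scavenger receptor for modified LDL, was lower, at -0.32 ± 0.07. Of 7 tested markers of the resident type 4 were higher and 1 was lower. Their summed level was 100.7 to 149.2 FPKM in 25HC and 97.3 to 111.2 FPKM in GW3965. Cd163, Lyve1, Timd4 and Vsig4 were too low to test, and Cd209f was listed at 0. Of 6 tested markers of activated myeloid cells, Cd80, a co-stimulator of T cells, was lower, at -0.37 ± 0.05 and the other 5 were not called. The part of macrophages in the interferon, inflammatory and lipid results was not tested.

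Cartilage matrix genes split. Col2a1 had 2430, 2371, 2129, 2426 and 2160 FPKM in 25HC, against 3223, 3159, 2857, 2927 and 2477 FPKM in GW3965. All 25HC libraries lay below all GW3965 libraries, and the difference was -0.34 ± 0.07 (adjusted p = 0.00779). Its fibril partner Col11a2 was lower too, at -0.32 ± 0.05, while Col11a1 was not called (-0.02 ± 0.04). Acan, the aggrecan core protein, had 83.3, 86.3, 78.5, 83.1 and 84.2 FPKM in 25HC, against 75.3, 70.7, 62.7, 61.0 and 60.0 FPKM in GW3965. Those groups were apart in the other direction, by 0.33 ± 0.06 (adjusted p = 0.0034). 

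The other 7 matrix genes that were called were higher in 25HC. Snorc, a chondrocyte proteoglycan, averaged 9.34 ± 0.370 FPKM in 25HC and 6.03 ± 0.986 FPKM in GW3965 (SD, n = 5 each) and differed by 0.57 ± 0.08, and Col27a1, a fibril collagen, differed by 0.50 ± 0.09. The matrilins Matn1, Matn3 and Matn4 differed by 0.41 ± 0.11, 0.47 ± 0.10 and 0.46 ± 0.07, the link protein Hapln1 by 0.27 ± 0.05 and Ucma by 0.37 ± 0.07. Of 22 matrix genes, all tested, 8 were higher, 2 were lower and 12 were not called, with a median of 0.24. The shares of all tested genes were 6.22% higher and 5.63% lower. By limma-voom 14 were higher and 2 lower. Comp (1129 ± 20.4 FPKM in 25HC and 1072 ± 46.2 FPKM in GW3965, SD, n = 5 each) and Fmod (989.8 ± 62.0 FPKM in 25HC and 960.2 ± 60.3 FPKM in GW3965, SD, n = 5 each) were among those not called. With all 20 libraries in the fit 0 of these genes was called (adjusted p = 1 for Col2a1 and 0.0576 for Acan), and with no filter on low values Col2a1 was not called (adjusted p = 0.163).

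Of the chondrocyte regulators, Sox9, the master factor of the lineage, averaged 24.4 ± 2.17 FPKM in 25HC and 21.9 ± 1.16 FPKM in GW3965 (SD, n = 5 each) and was not called (difference 0.15 ± 0.06, 95% interval 0.02 to 0.27). Pth1r, the receptor for parathyroid hormone and its relative, was higher by 0.35 ± 0.06 and Foxo1 was lower, at -0.22 ± 0.05, and the other 9 of 11 tested regulators were not called (list median 0.07). Counts of 1 in 11 each way are near the shares of all tested genes, 6.22% higher and 5.63% lower. Of 15 fibroblast genes 4 were higher (median 0.11): Fap (0.27 ± 0.05), Cthrc1 (0.26 ± 0.04), Tnc (0.19 ± 0.03) and Col3a1 (0.12 ± 0.03), whose call was lost without any 1 of 7 libraries. Col1a1, the main collagen of fibroblasts, averaged 2872 ± 225 FPKM in 25HC and 2877 ± 208 FPKM in GW3965 (SD, n = 5 each) and did not pass the test, with a 95% interval of -0.14 to 0.13. 

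Matrix proteases and their inhibitors went both ways. Mmp3 (stromelysin) had 10.7, 11.4, 13.5, 9.87 and 14.2 FPKM in 25HC, against 7.55, 7.89, 5.43, 5.82 and 6.02 FPKM in GW3965. The groups did not overlap, and it was higher by 0.78 ± 0.11 (adjusted p = 0.000794). Mmp13, the collagenase that cuts Col2a1, averaged 359 ± 22.5 FPKM in 25HC and 301 ± 30.3 FPKM in GW3965 (SD, n = 5 each) and was higher by 0.26 ± 0.07 with overlap, a call lost without any 1 of 7 libraries. Adamts4 was higher by 0.26 ± 0.07 and Adamts5, the other aggrecanase, was lower, at -0.28 ± 0.06. Timp3, which inhibits both, had 389.8, 416, 399.8, 385 and 381 FPKM in 25HC, against 548, 549, 553, 556 and 529 FPKM in GW3965. Its groups were apart, with a difference of -0.47 ± 0.03 (adjusted p = 1.42e-06), and Timp1 (0.07 ± 0.05) and Timp2 (0.07 ± 0.03) were not called. Of 18 tested members 6 were higher and 3 were lower, with a median of 0.08, beside 6.22% and 5.63% of all tested genes. Without 25HC library 2 or 3, or GW3965 library 1 or 2, 3 were called higher, as with no filter on low values. With all 20 libraries in the fit 1 was higher and 1 was lower.

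Of all tested genes 6.22% were called higher and 5.63% lower. Of 11 tested hypertrophy and mineral genes 4 were higher and 1 was lower, with a median of 0.16. The higher ones were Spp1 (osteopontin, 0.22 ± 0.03), Ank (0.21 ± 0.03), Enpp1 (0.21 ± 0.05) and Alpl (0.16 ± 0.03). The call of Enpp1 was lost with no filter on low values and without 25HC library 1 or GW3965 library 3, 4 or 5. Col10a1, the collagen of hypertrophic cartilage, was not called (0.02 ± 0.06). Vegfa, the vascular growth factor, had 23.2, 21.9, 19.9, 21.9 and 21.2 FPKM in 25HC, against 31.6, 34.0, 30.7, 31.8 and 29.2 FPKM in GW3965. It was lower with no overlap, at -0.52 ± 0.05 (adjusted p = 2.33e-05, and 0.656 with all 20 libraries in the fit). Contractile genes were lower in 7 of 11 cases, with a median of -0.27: Actg2 (-0.36 ± 0.06), Myl9 (-0.35 ± 0.08), and the matricellular genes Cyr61 (-0.33 ± 0.04) and Ctgf (-0.31 ± 0.03) on the same list. Acta2, smooth muscle actin, averaged 396 ± 44.5 FPKM in 25HC and 494 ± 64.8 FPKM in GW3965 (SD, n = 5 each) and was not called (-0.32 ± 0.09). In the fit of all 20 libraries 0 of the contractile and 0 of the hypertrophy genes were called.

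Several stress genes were lower in 25HC. Over all tested genes 5.63% were called lower. Of 19 genes of the integrated stress response and amino acid supply 10 were lower, 0 were higher and 9 were not called, with a median of -0.15. Fgf21, a stress-induced hormone, had 2.13, 1.44, 1.07, 2.34 and 1.796 FPKM in 25HC, against 4.33, 4.36, 3.28, 4.03 and 2.40 FPKM in GW3965. The highest 25HC and lowest GW3965 libraries nearly met, and the difference was -0.76 ± 0.15 (adjusted p = 0.00631). Atf3, Nupr1 and Cth differed by -0.51 ± 0.05, -0.47 ± 0.05 and -0.35 ± 0.04. Atf4, the factor that leads this response, differed by -0.20 ± 0.03, while its targets Ddit3 (-0.15 ± 0.06) and Trib3 (-0.16 ± 0.05) were not called. Of 16 p53 targets 9 were lower and 0 were higher (median -0.18), with Trp53inp1 (-0.31 ± 0.05) and Gdf15 (-0.30 ± 0.07) the furthest. Zmat3 and Eda2r differed by -0.23 ± 0.04 and -0.23 ± 0.06. The call of Eda2r was lost without 25HC library 1, 4 or 5 or GW3965 library 2, 3, 4 or 5. With no filter on low values Eda2r and Gdf15 were not called. None of these stress and p53 genes was called with all 20 libraries in the fit.

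NRF2 targets held 5 lower and 2 higher genes of 17 (median -0.08). The lower ones included Pgd and G6pdx, enzymes that make NADPH (-0.35 ± 0.04 and -0.18 ± 0.04). Fth1, the ferritin heavy chain, averaged 2066 ± 55.3 FPKM in 25HC and 1751 ± 58.1 FPKM in GW3965 (SD, n = 5 each) and was higher by 0.24 ± 0.03, and Gsta4, a glutathione transferase, was higher by 0.47 ± 0.12 with overlap, a call lost without any 1 of 5 libraries. The lower count was 3 without 25HC library 1 or 5 or GW3965 library 1, 3 or 4. The higher count was 1 without 25HC library 1, 3 or 4 or GW3965 library 3 or 4. In the fit of all 20 libraries 1 was lower and 0 were higher, and with no filter on low values 3 were lower and 0 were higher. Of 17 chaperones and folding genes of the endoplasmic reticulum 5 were higher and 0 were lower (median 0.09), with Pdia6 (0.23 ± 0.04) the furthest and Pdia4 (0.21 ± 0.04), Sdf2l1 (0.21 ± 0.05) and Pdia3 (0.17 ± 0.04) next. Hspa5, the central chaperone, was not called (0.0047 ± 0.03, 95% interval -0.05 to 0.06). Without 25HC library 3, 25HC library 5 or GW3965 library 2, 3 were called higher, and without 25HC library 5, 1 was called lower. With no filter on low values 2 of these folding genes were higher, and with all 20 libraries in the fit 0 were. Of 22 lysosome and autophagy genes 2 were lower, Ctsd (-0.38 ± 0.04) and Sqstm1 (-0.28 ± 0.03), and Cd63 was higher (0.15 ± 0.03), with a median of -0.02. These counts are near the shares of all tested genes, 5.63% lower and 6.22% higher, and 0 were called with all 20 libraries in the fit. Of 21 hypoxia and glycolysis genes Eno1 (enolase) was higher by 0.13 ± 0.04 and Ero1l and Ndrg1 were lower, at -0.19 ± 0.04 and -0.15 ± 0.04, with a median of 0.02. These counts too are near 6.22% and 5.63%. The groups overlapped in Eno1, whose call was lost when any 1 of 7 libraries was left out, and that of Ndrg1 was lost without GW3965 library 1. By limma-voom 3 were higher, and in the fit of all 20 libraries 0 were called.

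Among growth factor genes, the insulin-like growth factor binding proteins Igfbp3 and Igfbp5 were lower in 25HC, at -0.69 ± 0.08 and -0.43 ± 0.06, and the ligands Tgfb2 and Inhba, at -0.21 ± 0.03 and -0.20 ± 0.04. Tgfb3 was higher by 0.19 ± 0.04, and the other 14 of 19 tested were not called (median 0.02). Over all tested genes 6.22% were called higher, near the 1 of 19 here, and 5.63% lower, beside 4 of 19. In the Hedgehog pathway Gas1, a co-receptor, had 101, 95.7, 97.4, 105 and 92.3 FPKM in 25HC, against 66.5, 67.1, 63.6, 69.8 and 61.6 FPKM in GW3965. The groups were wide apart, by 0.57 ± 0.04 (adjusted p = 5.27e-06, and 0.0596 with all 20 libraries in the fit). The receptor gene and target Ptch1 (0.02 ± 0.05) and the signal transducer Smo (0.04 ± 0.03) were not called, and Gli1, the usual readout, was too low to test. Cdon and Disp1 were lower, at -0.10 ± 0.03 and -0.12 ± 0.03, and the call of Cdon was lost when any 1 of 6 libraries was left out, that of Disp1 when any 1 of 9 was. By limma-voom neither was called, and the median of 9 tested genes was 0.02.

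Markers of further cell types gave few calls. Car3, a carbonic anhydrase that is abundant in fat and muscle, had the largest positive difference of any called gene. It had 6.64, 6.09, 8.33, 7.72 and 7.70 FPKM in 25HC, against 2.60, 2.48, 3.73, 3.32 and 3.93 FPKM in GW3965, with no overlap and a difference of 0.98 ± 0.11 (adjusted p = 0.00011). Vehicle libraries 1 to 5 had 8.01, 9.18, 10.0, 19.0 and 9.04 FPKM of Car3, and libraries 2, 3 and 4 of these stood apart. The other 6 tested adipocyte markers were not called, Adipoq (0.15 ± 0.12) and Pparg (-0.07 ± 0.08) included, and Lep was listed at 0; the list's summed level was 63.9 to 89.4 FPKM in 25HC and 57.6 to 74.6 FPKM in GW3965. Of 2 tested skeletal muscle markers Acta1, skeletal actin, was lower, at -0.64 ± 0.15 with overlap. The 2 tested endothelial markers, Pecam1 (0.05 ± 0.08) and Cdh5 (-0.0007 ± 0.10), were not called, and 6 others were too low to test. Of 5 tested osteoblast markers Alpl alone was called. Of 7 tested tendon and synovium markers Thbs4 alone was called, higher by 0.34 ± 0.04. Single calls in such short lists say little about them, as 6.22% of all tested genes were called higher and 5.63% lower. Of 12 tested genes of the mitochondrial genome 0 were called in the fit of 10 libraries by limma and 0 by limma-voom (0 had an unadjusted p under 0.05, median -0.16), and 25HC library 4 had the lowest share of mitochondrial fragments, 0.889%, against 1.13% to 1.37% in the other 9.

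**Figure D5:**
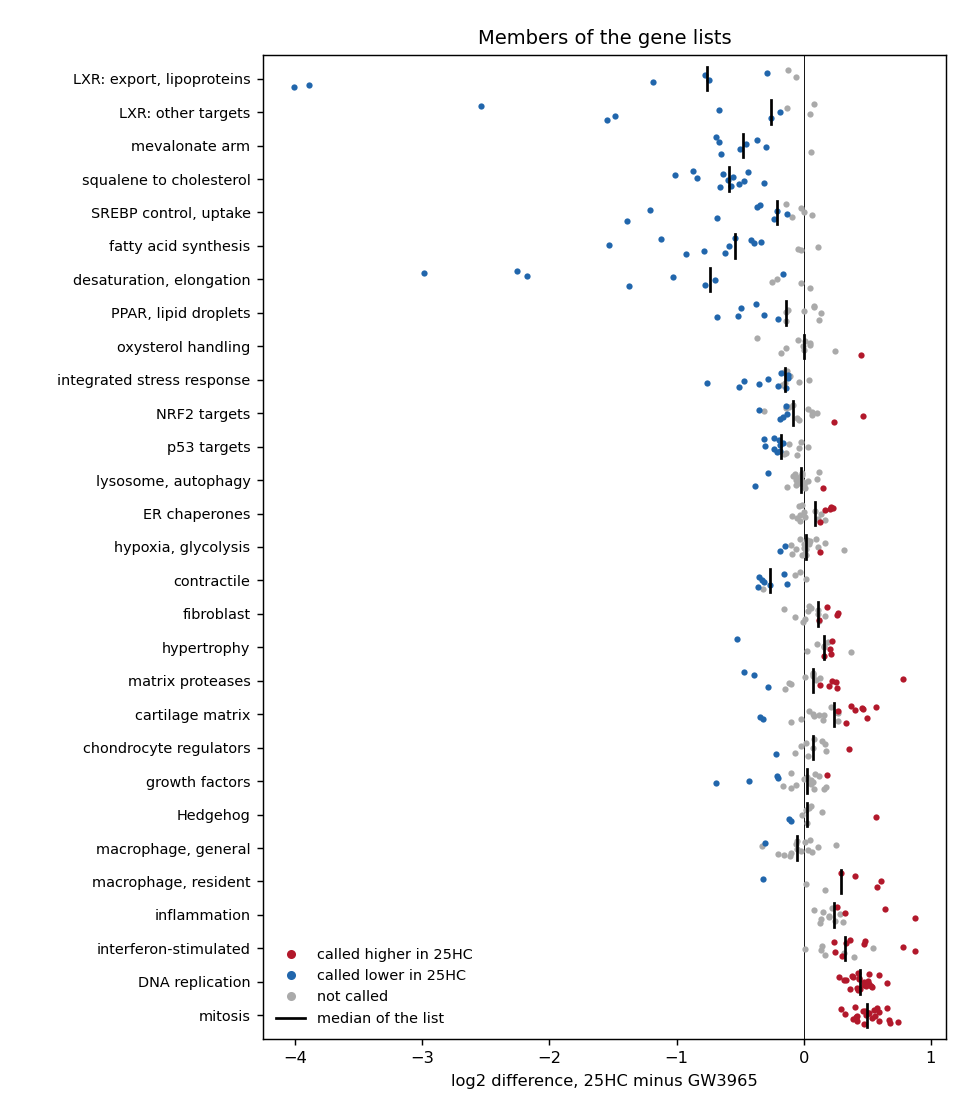
Difference between 25HC and GW3965 (x axis, log2, 25HC minus GW3965) of every tested member of 29 gene lists (rows); red points were called higher in 25HC, blue lower and grey not called, and black bars are list medians. Lipid lists lie to the left with the longest tails, division and interferon lists lie to the right, and most other lists straddle 0.

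Further genes were named for the size of their difference. Apod, a small lipid-binding apolipoprotein, had 1.41, 1.27, 1.61, 0.821 and 1.13 FPKM in 25HC, against 4.89, 4.94, 5.17, 4.77 and 5.05 FPKM in GW3965. The gap was wide, at -1.42 ± 0.08 (adjusted p = 7.46e-07). Ighm, the immunoglobulin heavy chain constant gene, had 0.567, 0.174, 0.217, 0.266 and 0.293 FPKM in 25HC, against 1.40, 1.60, 2.53, 1.67 and 2.18 FPKM in GW3965. It passed the filter only through GW3965, where all libraries were above 1 FPKM, so that the groups had to differ, and its difference of -1.13 ± 0.12 is given as a description. Among the 15 largest positive differences of called genes whose groups do not overlap were Pbk (0.81 ± 0.07), Spc24 (0.80 ± 0.08), Cenph (0.73 ± 0.11), Melk (0.73 ± 0.09) and Stmn1 (0.71 ± 0.08), all known from dividing cells. Also among them were Tcf19 (0.79 ± 0.06), Ppp1r1b (0.78 ± 0.11), D430020J02Rik (0.77 ± 0.08) and Slfn9 (0.70 ± 0.06), the last from a family of similar genes. Among the most abundant genes, Fn1 (fibronectin, 4986 ± 228 FPKM in 25HC and 4868 ± 143 FPKM in GW3965, SD, n = 5 each) and Thbs1 (thrombospondin, 3743 ± 118 FPKM in 25HC and 3969 ± 57.4 FPKM in GW3965, SD, n = 5 each) did not pass the test, with 95% intervals of -0.05 to 0.12 and -0.15 to -0.02.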

How the data were processed

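The kits were Trizol for RNA and Fast RNA-seq Lib Prep Kit V2 for libraries, per the labels' protocols. CASAVA 1.8 and HISAT2 2.0.5 are named in the submitters' processing notes. For the counting tool, its use of strand and the build: not given in the sources used here. Among gene identifiers, 99.77% are in GENCODE release M21, and 98.33% of those have its coordinates (GRCm38). The authors deposited FPKM values per gene for all 20 libraries. Fragments recovered from the FPKM values were whole within 0.02 for 100% of values, which gave the depths. PCR copies were not marked, so fragments are not independent molecules.

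The 10 libraries of both treatments were fitted alone with limma 3.58.1 (R 4.3.3) on log2(FPKM + 1), with a mean-variance trend and Benjamini-Hochberg adjustment, over genes with at least 1 FPKM in at least 5 libraries (12134 of 54532). Called means an adjusted p under 0.05, and an adjusted p given without a tool comes from this fit. Between libraries of a group the chi-square per gene was 2.62 to 7.16 against counting noise alone, and each library was counted as 1 replicate. Named genes were the 15 largest called differences in each direction with no overlap between groups, a fixed set, the leading members of each list and the most abundant genes. The comparison, the gene lists (37) and the fixed set were chosen with earlier results of these data known. A few list members are counted in their lists and are otherwise not reported here. Other genes given as list members have their values from the same fit. Promoter sequences came from RefSeq. Alternatives were other pseudocounts, filters, scalings and variance settings, all 20 libraries, limma-voom on recovered fragments, a replicate block and leaving out each library. Leaving out genes shorter than 200 bases was chosen after seeing the data.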

Additional observations from a re-analysis of the deposited data

Results flagged for a closer look

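In 12 of 270 groups of 5 libraries examined (4.44%), 1 library lay far from the other 4, by a gap to its nearest neighbour of over 0.71 of the group's range. Chance gives about 1 in 20. Among 25HC libraries, Ifit1 had 5.686 FPKM in library 2 against 8.777 to 9.521 in the others, and Thbs1 had 3953 FPKM in library 2 against 3677 to 3714. Acsl3 had 6.437 FPKM in library 1 against 5.727 to 5.891. Col1a1 had 3264 FPKM in library 4 against 2696 to 2840, and mt-Co1 had 2380 FPKM there against 3250 to 3578. Nfkbia had 17.91 FPKM in library 5 against 13.11 to 13.73. Among GW3965 libraries, Cdon had 31.44 FPKM in library 1 against 29.66 to 30.14. Ucp2 had 11.9 FPKM in library 3 against 10.49 to 10.88. Lyz2 had 482.1 FPKM in library 4 against 520.9 to 530.6, and Rrm2 had 31.86 FPKM there against 29.45 to 30.0. Actg2 had 20.25 FPKM in library 5 against 15.74 to 16.72, and Vcam1 had 4.461 FPKM there against 3.909 to 4.052.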

How the results depend on the processing

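No gene called in the comparison of 755 higher and 683 lower genes turned its sign under any alternative run, but the number of calls depended on the samples and the filter. With all 20 libraries in the fit 109 were called higher and 108 lower, and 217 of the 1438 calls were kept. That fit leaves each difference unchanged and takes in the Vehicle and 25HC 3-sulfate libraries that stood apart. A minimum of 5 FPKM left 486 higher calls, with 7048 genes tested. By limma-voom 1186 were higher, and TPM scaling gave 828 higher and 591 lower. With no filter on low values, and so more genes tested, 569 were higher and 530 lower. Leaving out 1 library gave 591 to 725 higher and 539 to 651 lower calls, with 1098 to 1215 of the 1438 kept. Of 129 named genes that were called, 49 were kept under every setting, 80 were lost with all 20 libraries, 23 with no filter, 3 by limma-voom and 18 without some single library. Values near 0 changed sign: Cdh5 was 0.0024 and 0.00043 with pseudocounts 0.1 and 0.5, 0.012 with TPM scaling, 0.0018 with median-of-ratios scaling and 0.032 by limma-voom, and -0.070 to 0.056 without single libraries. Col1a1 was 0.0091, 0.0011 and 0.023 with TPM scaling, median-of-ratios scaling and limma-voom, and -0.050 to 0.026 without single libraries, while mt-Cytb was -0.16 to 0.0024 without single libraries, above 0 without 25HC replicate 4. Thbs1 was called lower (-0.10, adjusted p = 0.0338 by limma) without 25HC replicate 2. The cause was not tested. 

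With the replicate number as a block 812 were higher and 730 lower, and 1257 of the 1438 calls were kept. Of the called named genes 4 were lost with the block, Cdon, Disp1, Siglec1 and Usp18. With the block 12 cartilage matrix genes were higher, 2 oxysterol genes and 1 mitochondrial gene were lower. After each gene's group mean was subtracted, the remaining deviations of libraries of the same number correlated at 0.015 to 0.088. In these deviations 4 of 5 25HC libraries correlated best with the GW3965 library of their own number. On the second principal component, with 10.6% of the variance, 25HC libraries 1 to 5 lay at 5.16, 6.23, -6.32, 0.05 and -3.65. Those of GW3965 lay at 8.42, 4.77, -5.89, 0.87 and -9.63. This is a hint from the data and not the design, and what libraries of 1 number share was not tested. The depth of 16349340 to 19348139 fragments limits genes near 1 FPKM.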

Other observations

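Further called genes outside the lists were chosen after their values were seen, and only from those whose groups do not overlap. Crabp2, which carries retinoic acid, averaged 5.22 ± 0.529 FPKM in 25HC and 11.7 ± 1.35 FPKM in GW3965 (SD, n = 5 each), a difference of -1.02 ± 0.08. Fabp5, a fatty acid binding protein, averaged 11.1 ± 0.581 FPKM in 25HC and 23.1 ± 1.07 FPKM in GW3965 (SD, n = 5 each) and differed by -0.99 ± 0.04. Gramd1b, which moves cholesterol from the plasma membrane to the endoplasmic reticulum, differed by -0.83 ± 0.05, and Dbi, which binds acyl-CoA, by -0.70 ± 0.05. Nuak2, a kinase of the AMPK family, differed by -0.90 ± 0.06, Cdkn2b, an inhibitor of cell cycle kinases, by -0.70 ± 0.04, and Bdnf, a neurotrophin, by -0.68 ± 0.08. In the other direction, Steap3, which reduces iron, averaged 54.5 ± 1.84 FPKM in 25HC and 33.2 ± 1.58 FPKM in GW3965 (SD, n = 5 each) and differed by 0.70 ± 0.04. Sfrp2, which binds Wnt proteins, differed by 0.64 ± 0.08, Cpxm1 by 0.68 ± 0.06 and Chil1 by 0.64 ± 0.10. Cdc20, which drives the exit from mitosis, and Pclaf, which binds the sliding clamp, differed by 0.64 ± 0.08 and 0.64 ± 0.08. By gene type, 12.6% of 11041 tested protein-coding genes were called, 6.59% of 334 long non-coding genes and 3.77% of 530 pseudogenes.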
